A study of Rattus norvegicus with 13 samples.

Results

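The genes of the insulin-like growth factor (IGF) system examined here were *Igf1*, *Igf2*, *Igf1r*, *Igf2r*, *Igfbp2*, *Igfbp3*, *Igfbp4*, *Igfbp5*, *Igfbp7* and *Pappa*. They were chosen by their symbols as the ligands, receptors and binding proteins of the system and 1 protease of binding proteins, and all 10 were present among the 14790 genes measured. RNA-seq had been performed on mammary epithelial cells of 13 Wistar-Furth rats, 6 of them 6 weeks old, which the study calls within WOS (WOS, window of susceptibility), and 7 of them 10 weeks old, called outside WOS, with 1 library per rat. No treatment, transgene or deletion is named for either age. The abdominal and inguinal glands were digested with collagenase and filtered to collect ductal fragments, a preparation enriched for epithelium in which other cell types of the gland remain. The comparison asked which genes of the IGF system differed in expression between the ages.

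IGF1 and IGF2 are secreted growth factors that bind the receptor tyrosine kinase IGF1R and through it the IRS, PI3K, AKT and RAS, MAPK cascades. IGF binding proteins hold the ligands outside the cell, and pregnancy-associated plasma protein A, the product of *Pappa*, cuts some of these binding proteins and so frees the ligand. In the mammary gland IGF1 made under growth hormone, much of it in the stroma, is needed for the ducts to grow during puberty, and *Igfbp5* is known for its role in involution.

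The values are counts that the authors scaled per library and rounded, here called normalized counts. They summed to between 13261906 and 15659533 per rat within WOS and between 13766735 and 15402814 outside WOS. In 7 rats some whole numbers from 1 to 30 never occurred, which implies totals before scaling of 6.91e+06 to 1.36e+07 reads. All 10 IGF genes had at least 103 normalized counts in every rat. Apart from age, the rats were cut at the widest gap along the first residual component. This gave a set of 8 (4 at each age) and a set of 5 (2 within WOS, 3 outside WOS). Such a cut gives 2 sets in any data, so it does not show that the rats form groups. The set of 5 holds rats 80, 78 and 75, which had the lowest of the implied totals (6.91e+06, 7.14e+06 and 9.55e+06 reads). It also holds rat 81, with 1.17e+07 reads, above the 1.07e+07 of rat 74 in the set of 8. Rat 83, also in the set of 5, lacked none of these whole numbers, so no total was implied for it. No label names these sets, and values within each are given beside the results. The cells carried epithelial markers in every rat, since 16 luminal markers summed to 43650 to 63158 normalized counts within WOS and 59061 to 75669 outside WOS, and 13 basal markers summed to 29298 to 45277 and 39611 to 53679. None of these markers was at 0 in any rat. The sum of 15 fibroblast markers was higher within WOS with no overlap between the ages, and in bulk samples fewer cells of a type and less RNA per cell cannot be told apart.

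Of the 10 IGF genes, *Igf2r* and *Igfbp4* were differentially expressed (DE), both higher within WOS. DE stands for a Benjamini-Hochberg adjusted p under 0.05 from limma on log2(normalized count + 1), fitted over all genes. Among all 14790 genes the share of DE was 16.1% (8.71% with higher values within WOS and 7.39% with higher values outside WOS), so a count of 2 in 10 is near this background. The ages did not overlap for the same 2 genes, against 6.07% of all genes. An unadjusted p under 0.05 was found for 5 of the 10, against 31.6% of all genes. The log2 fold change of 6 weeks over 10 weeks was above 0 for 7 IGF genes and below 0 for 3 (*Igf1r*, *Igfbp5* and *Pappa*), with a median of 0.29 against 0.028 for all genes. No fold difference between the ages exceeded 1.44 among the 10 IGF genes.

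**Figure D1:**
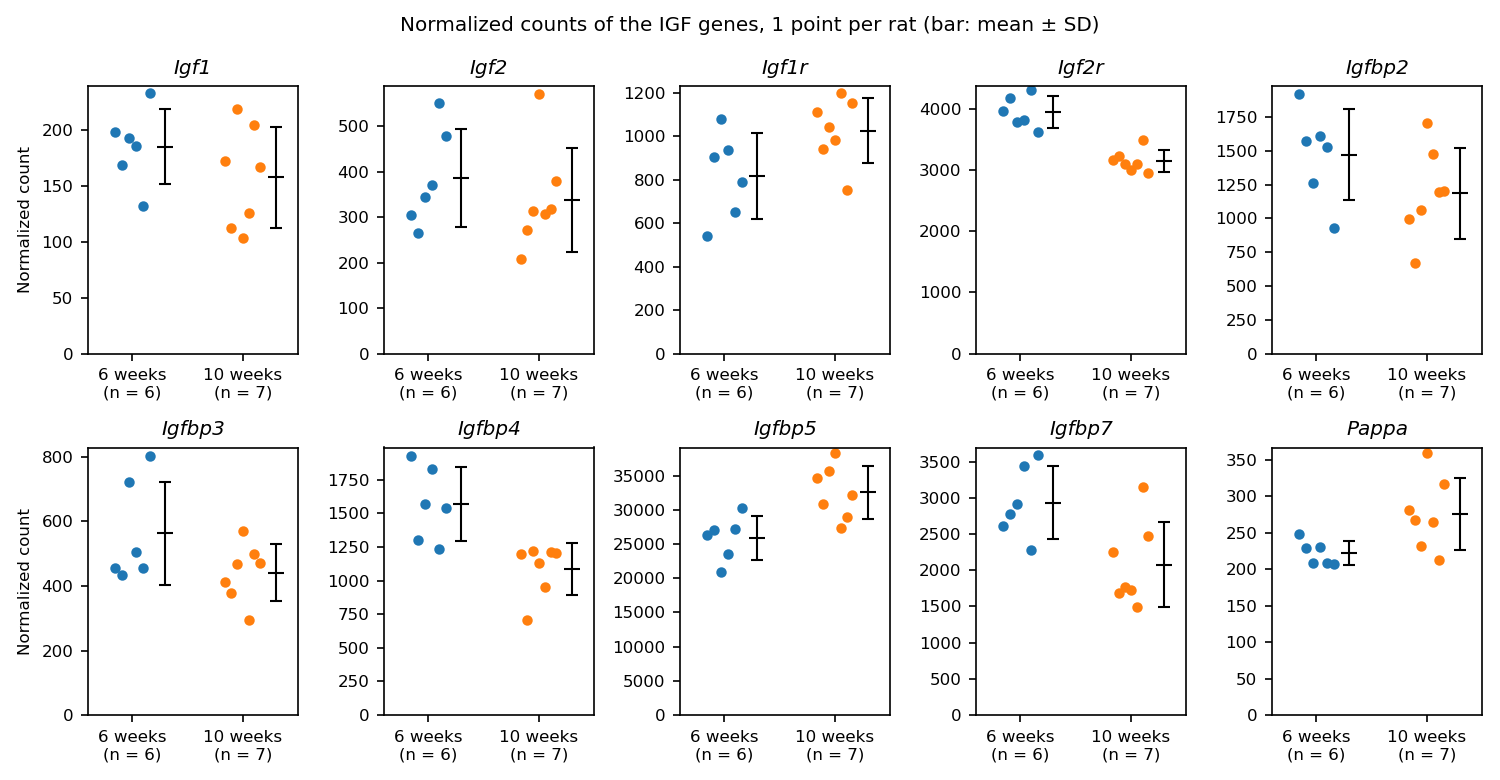
Normalized counts of the 10 IGF genes (y axis, linear from 0, a scale of its own for each gene) at 6 and 10 weeks (x axis), with 1 point per rat and the mean and SD as a bar beside the points. Only *Igf2r* and *Igfbp4* show ages that do not overlap, and the 10-week rats with 3152 and 2470 stand among the 6-week values of *Igfbp7*.

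**Figure D2:**
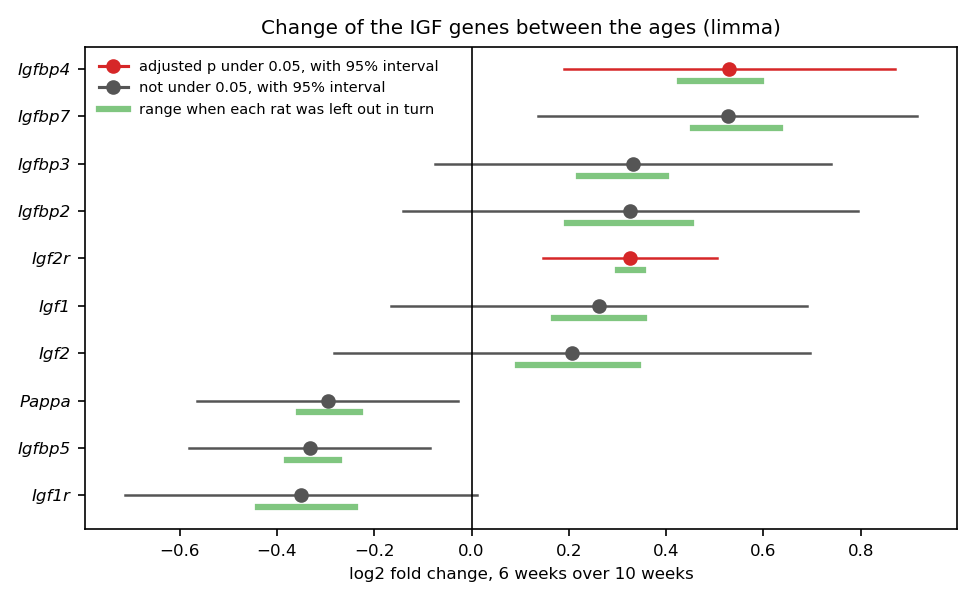
Log2 fold change of 6 over 10 weeks (x axis) for each IGF gene (y axis) with its 95% interval from limma, red where the adjusted p was under 0.05. Green bars give the range over 13 fits that each left out 1 rat, and none of them crosses 0.

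The ligand genes did not differ detectably between the ages. *Igf1* (ENSRNOG00000004517), which encodes the ligand driven by growth hormone, ran from 132 to 233 normalized counts within WOS (median 189.5, n = 6) and from 103 to 219 outside WOS (median 167, n = 7). The ages overlapped, with 1 rat at 6 weeks above all rats at 10 weeks and 3 rats at 10 weeks below all rats at 6 weeks. Its log2 fold change was 0.26 (standard error 0.20, 95% interval -0.16 to 0.69, adjusted p = 0.386 from limma), and the sets of 8 and 5 gave 0.16 and 0.42. *Igf2* (ENSRNOG00000020369), the imprinted ligand of fetal growth, ran from 266 to 550 within WOS (median 357) and from 208 to 570 outside WOS (median 314). The highest *Igf2* of either age stood in rat 84 at 6 weeks and rat 81 at 10 weeks, where the next rats had 479 and 379. The log2 fold change of *Igf2* was 0.21 (standard error 0.23, 95% interval -0.28 to 0.70, adjusted p = 0.565). Within the set of 8 it was 0.41 and within the set of 5 it was -0.090, a change of sign. A miRNA gene and a protein-coding locus overlap *Igf2* in RefSeq.

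Among the receptors, *Igf2r* was DE and *Igf1r* was not. *Igf2r* (ENSRNOG00000014997) encodes the cation-independent mannose 6-phosphate receptor, which carries IGF2 to the lysosome for breakdown and also sorts lysosomal enzymes. It ran from 3628 to 4305 normalized counts within WOS (median 3893.5, n = 6) and from 2943 to 3489 outside WOS (median 3106, n = 7). Every rat at 6 weeks lay above every rat at 10 weeks. The spread between rats was small, with a coefficient of variation of 6.49% within WOS and 5.68% outside WOS. *Igf2r* was 1.25-fold higher within WOS (log2 fold change 0.33, standard error 0.083, 95% interval 0.15 to 0.51, adjusted p = 0.0196 from limma). It was DE in 12 of 13 fits that each left out 1 rat, the exception being the fit without rat 84 (log2 fold change 0.30, adjusted p = 0.0507). Fitted in the set of 8 alone it gave 0.33 (adjusted p = 0.0602) and in the set of 5 alone 0.31 (adjusted p = 0.433). A long noncoding RNA and a snoRNA overlap *Igf2r* in RefSeq, and since it is not stated whether the counting used strand, their reads cannot be told apart from its own.

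*Igf1r* (ENSRNOG00000014187), which encodes the signalling receptor for both ligands, ran from 540 to 1081 normalized counts within WOS (median 847.5) and from 755 to 1199 outside WOS (median 1045). Of the rats at 6 weeks 5 lay below the 10-week median, and 3 rats at 10 weeks lay above all at 6 weeks. The low end held rats 70 and 84 at 6 weeks, with 540 and 654, and rat 85 at 10 weeks, with 755. The log2 fold change was -0.35 (standard error 0.17, 95% interval -0.71 to 0.011, adjusted p = 0.17 from limma). The value was -0.46 in the set of 8 and -0.091 in the set of 5. A long noncoding RNA and *Pgpep1l* overlap *Igf1r* in RefSeq.

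Of the 5 genes for binding proteins, *Igfbp4* was DE, *Igfbp7* and *Igfbp5* came near the threshold from opposite sides of 0, and *Igfbp2* and *Igfbp3* varied more between rats than between the ages. *Igfbp4* (ENSRNOG00000010635) encodes a binding protein that mostly restrains IGF action and is the main substrate of the *Pappa* protease. It ran from 1238 to 1928 normalized counts within WOS (median 1553, n = 6) and from 704 to 1218 outside WOS (median 1199, n = 7). The ages did not overlap, but 1238 in rat 84 at 6 weeks and 1218 in rat 78 at 10 weeks were close. Rat 74 was lowest, with 704, and the next rat at 10 weeks had 952. *Igfbp4* was 1.44-fold higher within WOS (log2 fold change 0.53, standard error 0.16, 95% interval 0.19 to 0.87, adjusted p = 0.0384 from limma). The call was lost when any of rats 70, 75, 80 and 86 at 6 weeks or rats 72, 74, 83 and 87 at 10 weeks was left out, with log2 fold changes of 0.43 to 0.56 and adjusted p from 0.0537 to 0.0907 in those 8 fits. The set of 8 alone gave 0.49 (adjusted p = 0.138) and the set of 5 alone 0.63 (adjusted p = 0.313). A long noncoding RNA overlaps *Igfbp4* in RefSeq, with the same limit as for *Igf2r*.

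*Igfbp7* (ENSRNOG00000002050), a matrix-bound protein related to the binding proteins with weak affinity for IGF, ran from 2277 to 3589 normalized counts within WOS (median 2841) and from 1489 to 3152 outside WOS (median 1768). The 10-week median was exceeded in 6 of 6 rats at 6 weeks, and 5 of 7 rats at 10 weeks lay below all at 6 weeks. Its log2 fold change of 0.53 was as large as that of *Igfbp4*, but the standard error was 0.18 and the adjusted p = 0.0643 from limma did not pass. Rat 85 at 10 weeks, with 3152 against at most 2470 in the others of that age, stood among the 6-week values. Rat 87 at 10 weeks, with 2470, also lay above the lowest 6-week value of 2277. *Igfbp7* was DE when rat 85 was left out (0.63, adjusted p = 0.0197). The sets of 8 and 5 gave values far apart, 0.25 and 0.93. *Polr2b*, a subunit gene of RNA polymerase II, and other loci overlap *Igfbp7* in RefSeq.

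*Igfbp5* (ENSRNOG00000017206), a binding protein held in the matrix and another substrate of the *Pappa* protease, ran from 20882 to 30299 normalized counts within WOS (median 26674.5) and from 27369 to 38234 outside WOS (median 32143). Each of the 6 rats at 6 weeks lay under the 10-week median, and 5 of them lay below every rat at 10 weeks. The exception was rat 86 with 30299. *Igfbp5* was 1.26-fold higher outside WOS (log2 fold change -0.33, standard error 0.12, 95% interval -0.58 to -0.085), with an adjusted p = 0.0656 from limma that did not pass. *Igfbp5* was DE when rat 86 was left out (-0.38, adjusted p = 0.0468). The value was -0.19 in the set of 8 and -0.59 in the set of 5.

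*Igfbp2* (ENSRNOG00000016957), a binding protein that prefers IGF2, ran from 931 to 1917 normalized counts within WOS (median 1550) and from 667 to 1708 outside WOS (median 1195). The ages overlapped over most of this range (log2 fold change 0.33, standard error 0.22, 95% interval -0.14 to 0.79, adjusted p = 0.321 from limma). In the set of 8 it was 0.54 and in the set of 5 it was 0.038. *Igfbp3* (ENSRNOG00000061910), the main carrier of IGF in serum, ran from 433 to 804 within WOS (median 481.5) and from 296 to 569 outside WOS (median 467). Rats 75 and 86 at 6 weeks, with 723 and 804, stood above all others, and the medians of the ages were close (log2 fold change 0.33, standard error 0.19, adjusted p = 0.244). For *Igfbp3* the sets of 8 and 5 gave 0.25 and 0.50.

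*Igfbp2* and *Igfbp5* are listed as neighbours on rat chromosome 9 in RefSeq and had log2 fold changes of 0.33 and -0.33. Both missed the threshold, and the difference between them was not tested. The promoter windows of this pair and of the 2 DE genes are shown so that the sequences at their starts can be compared. They are RefSeq sequences of build GRCr8 matched by symbol, from 250 bases before to 50 bases after the annotated start, written 5′ to 3′ on the strand of the gene. Capitals mark matches to TATAAA (called a TATA box), to GGGCGG (called a GC box) or to CCAAT, each searched on both strands. The windows are chr1:50526628-50526927, plus strand, for *Igf2r*; chr10:84491221-84491520, plus strand, for *Igfbp4*; chr9:81864561-81864860, plus strand, for *Igfbp2*; and chr9:81914138-81914437, minus strand, for *Igfbp5*.
Igf2r: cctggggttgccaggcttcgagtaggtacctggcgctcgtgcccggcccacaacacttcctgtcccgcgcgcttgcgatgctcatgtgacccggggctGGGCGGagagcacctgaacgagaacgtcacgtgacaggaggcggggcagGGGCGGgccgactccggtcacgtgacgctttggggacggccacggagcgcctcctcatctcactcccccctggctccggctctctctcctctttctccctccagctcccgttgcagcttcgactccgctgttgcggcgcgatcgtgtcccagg
Igfbp4: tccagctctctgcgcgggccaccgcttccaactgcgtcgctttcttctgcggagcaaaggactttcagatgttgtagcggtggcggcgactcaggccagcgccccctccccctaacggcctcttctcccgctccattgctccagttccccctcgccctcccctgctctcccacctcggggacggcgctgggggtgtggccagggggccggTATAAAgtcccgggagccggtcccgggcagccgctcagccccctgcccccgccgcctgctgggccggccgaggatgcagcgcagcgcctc
Igfbp2: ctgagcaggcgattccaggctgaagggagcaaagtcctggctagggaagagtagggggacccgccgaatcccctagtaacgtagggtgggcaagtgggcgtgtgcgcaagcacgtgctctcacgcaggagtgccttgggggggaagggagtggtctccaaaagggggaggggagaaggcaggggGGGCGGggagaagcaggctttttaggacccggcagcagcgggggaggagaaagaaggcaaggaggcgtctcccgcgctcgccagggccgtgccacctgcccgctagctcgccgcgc
Igfbp5: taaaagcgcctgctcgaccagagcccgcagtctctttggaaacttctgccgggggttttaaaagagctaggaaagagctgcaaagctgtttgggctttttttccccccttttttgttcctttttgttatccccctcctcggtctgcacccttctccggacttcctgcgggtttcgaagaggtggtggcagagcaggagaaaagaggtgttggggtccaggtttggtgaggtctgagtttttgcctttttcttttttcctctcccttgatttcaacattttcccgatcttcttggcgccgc

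The window of *Igf2r* held 2 GC boxes, at 152 and 103 bases before the start, and 30 CpG dinucleotides, with no TATA box. That of *Igfbp4* held 1 TATA box, 40 bases before the start, and 27 CpG. The window of *Igfbp2* held 1 GC box and 20 CpG, whereas that of *Igfbp5* held none of the 3 motifs and 11 CpG. Of the 33469 windows of RefSeq genes of the same length, 14.2% held a TATA box, 33.1% a GC box and 37.5% the letters CCAAT, and the median was 7 CpG. No matches of the motifs overlapped, and a match is a description of the letters only.

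*Pappa* (ENSRNOG00000033527) encodes the metalloprotease that cuts IGFBP4 and IGFBP5. It ran from 207 to 248 normalized counts within WOS (median 219, n = 6) and from 212 to 359 outside WOS (median 267, n = 7). The rats at 6 weeks were close together, with a coefficient of variation of 7.49% against 18.1% at 10 weeks, and all 6 lay below the 10-week median. At 10 weeks 5 of 7 rats lay above every rat at 6 weeks, while rats 85 and 78 had 212 and 231. *Pappa* was 1.23-fold higher outside WOS (log2 fold change -0.30, standard error 0.12, 95% interval -0.56 to -0.027), with an adjusted p = 0.122 from limma that did not pass. The log2 fold change was below 0 in every fit that left out 1 rat (-0.36 to -0.23), within the set of 8 (-0.26) and within the set of 5 (-0.35).

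Because ligand, receptor, protease and substrate act together, 6 ratios between partner genes were taken within each rat, where the scaling of a library has no part. Counts were not divided by transcript length, so the value of a ratio has no meaning of its own, and what was compared is its difference between the ages. An exact permutation test of the mean log2 ratio over all 1716 arrangements of the rats was used, two-sided and adjusted over the 6 pairs. *Pappa* over its substrate *Igfbp4* differed, with a mean log2 ratio of -2.80 ± 0.21 (SD) over the 6 rats within WOS and -1.97 ± 0.40 (SD) over the 7 outside WOS. In 5 of 6 rats at 6 weeks this ratio lay below all rats at 10 weeks. It was 1.77-fold higher outside WOS (exact permutation p = 0.00291, adjusted p = 0.0175) and passed in all 13 fits that left out 1 rat. A score of fibroblast markers, described below, did not overlap between the ages, so a fit with it as a covariate cannot separate score from age. In that fit the log2 fold changes were -0.35 (standard error 0.26) for *Pappa* and -0.30 (standard error 0.20) for *Igfbp4*. They were -0.37 (standard error 0.36) for *Igf1r* and 0.45 (standard error 0.17) for *Igf2r*. No ratio between partner genes was tested with that score. *Igf1r* over *Igf2r* differed too, at -2.30 ± 0.41 within WOS and -1.63 ± 0.29 outside WOS, so that the ratio was 1.60-fold higher outside WOS (exact permutation p = 0.00641, adjusted p = 0.0192). Here rat 85 at 10 weeks, at -2.21, stood among the 6-week rats, the other 10-week rats lay above all of these, and the ratio again passed in all 13 fits. Within the sets of 8 and 5 the difference was -0.75 and -0.98 for *Pappa* over *Igfbp4* and -0.79 and -0.40 for *Igf1r* over *Igf2r*. The smallest p that an exact permutation test can give is 0.0286 in the former set and 0.1 in the latter. After adjustment over the 6 pairs no ratio could pass in the set of 5. In the set of 8 one could pass only if most of the pairs reached the smallest p. The adjusted p of 0.257 and 0.6 for both ratios (exact permutation tests) therefore decide nothing about them.

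**Figure D3:**
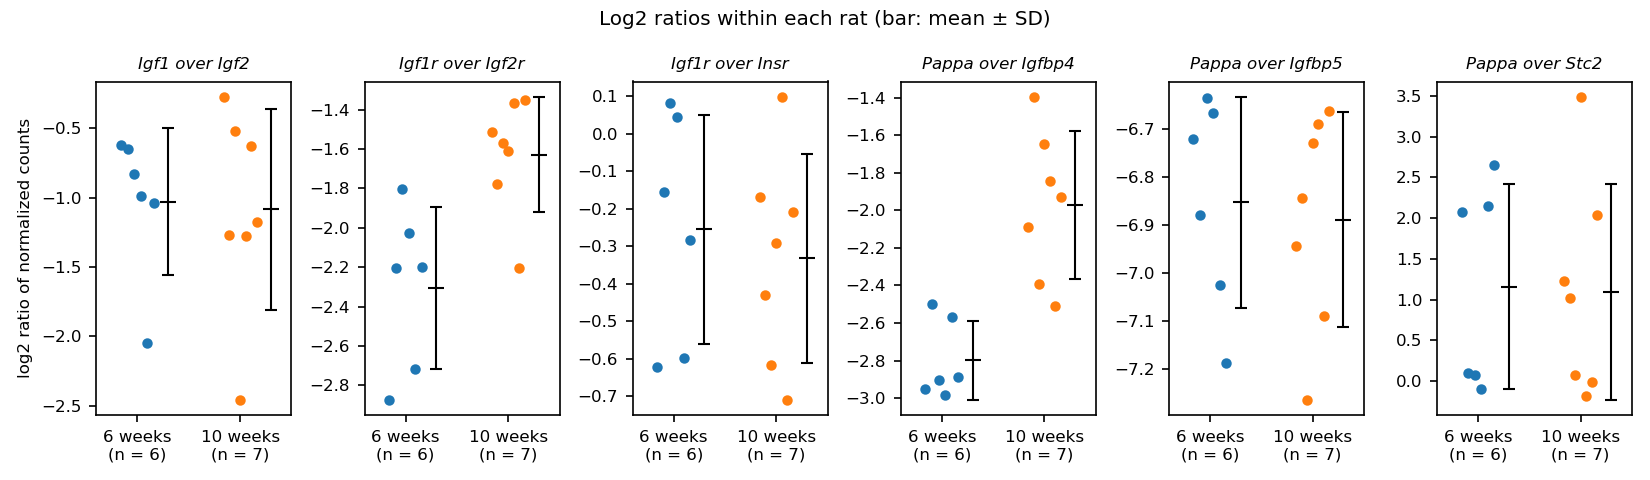
Log2 ratio of the normalized counts of 2 genes in each rat (y axis, a scale of its own for each pair) at 6 and 10 weeks (x axis), with the mean and SD as a bar. The ages part for *Igf1r* over *Igf2r* apart from a single 10-week rat at -2.21 and for *Pappa* over *Igfbp4* apart from the 10-week rat with the lowest ratio, -2.51, while they overlap in the other 4 pairs.

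The other 4 ratios did not differ detectably. *Igf1* over *Igf2* differed by 0.056 on the log2 scale (exact permutation p = 0.87), *Pappa* over *Igfbp5* by 0.037 (exact permutation p = 0.77) and *Pappa* over *Stc2*, its stanniocalcin inhibitor, by 0.063 (exact permutation p = 0.906). Each of these changed its sign when single rats were left out. *Igf1r* over *Insr*, the insulin receptor gene with which it forms hybrid receptors, differed by 0.078 (exact permutation p = 0.628). *Pappa* and *Igfbp5* had log2 fold changes of -0.30 and -0.33, whereas that of *Igfbp4* was 0.53.

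The list of other IGF axis genes was, like all lists here, chosen with earlier results of these data known. Its share of DE genes is therefore a description of the list and no independent test. The list held 23 genes, of which 15 were in the table. Of these 15, 7 were DE (6 with higher values within WOS and 1 with higher values outside WOS), a share of 46.7% against 16.1% of all genes, with a median log2 fold change of 0.56 against 0.028 for all genes. *Adam12*, a metalloprotease that can cut IGFBP3 and IGFBP5, ran from 190 to 401 normalized counts within WOS and from 22 to 92 outside WOS (log2 fold change 2.47 with a standard error of 0.33, adjusted p = 0.000468 from limma). *Vtn*, the gene of the matrix protein vitronectin, which binds IGF2 and IGFBP5, ran from 140 to 226 and from 53 to 109 (log2 fold change 1.28, standard error 0.16, adjusted p = 0.000328). These genes and *Igf2bp1*, with 10 to 28 against 3 to 8 normalized counts (log2 fold change 1.51, adjusted p = 0.00297), did not overlap between the ages. *Igf2bp1* encodes an RNA-binding protein of *Igf2* and other mRNAs, as does *Igf2bp2* (log2 fold change 0.54, adjusted p = 0.0354).

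*Igfbp6*, which encodes a binding protein that prefers IGF2, ran from 221 to 591 normalized counts within WOS and from 49 to 242 outside WOS, with a log2 fold change of 1.30 (adjusted p = 0.0284), and was DE in 9 of 13 fits that left out 1 rat. *Htra3*, a serine protease gene, had 1.07 (adjusted p = 0.0495), just under the threshold. It was DE in 3 of 13 fits that left out 1 rat and lost the call under median-ratio scaling, library size scaling and a pseudocount of 0.1, while *Igf2bp2* was DE in 6 of the 13 fits. *Insr* was the DE gene higher outside WOS, with 831 to 1021 normalized counts within WOS and 1119 to 1603 outside WOS, with no overlap (log2 fold change -0.43, standard error 0.10, adjusted p = 0.0138). *Insr* was DE in all 13 fits that left out 1 rat. The 8 genes that were not DE include *Stc2*, which ran from 32 to 246 normalized counts within WOS and from 31 to 300 outside WOS.

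Downstream of the receptors, 3 of 37 genes of the IRS, PI3K, AKT and mTOR list were DE. *Pdpk1*, the kinase that activates AKT, ran from 483 to 635 normalized counts within WOS and from 641 to 773 outside WOS (log2 fold change -0.37, adjusted p = 0.026 from limma). *Rps6kb1*, the S6 kinase downstream of mTOR, had -0.49 (adjusted p = 0.0269). *Mlst8*, a subunit of the mTOR complexes, had 0.37 (adjusted p = 0.0487) and was DE in 1 of 13 fits that left out 1 rat, against 9 for *Pdpk1* and 10 for *Rps6kb1*. *Mlst8* also lost the call under median-ratio scaling and limma-trend, and *Pdpk1* under library size scaling. The median of the list was -0.063, and its share of DE genes was 8.11%, below the 16.1% of all genes.

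The SHC, RAS and MAPK list held 28 genes, of which 8 were DE (28.6%, against 16.1% of all genes), 6 with higher values outside WOS and 2 with higher values within WOS. *Dusp6*, a phosphatase of ERK that ERK itself induces, ran from 2899 to 4336 normalized counts within WOS and from 4797 to 6173 outside WOS (log2 fold change -0.59 with a standard error of 0.12, adjusted p = 0.00738 from limma). *Braf*, a RAF kinase, had -0.64 (adjusted p = 0.0164), and the ages overlapped for neither gene. *Shc2*, an adaptor, had 1.07 (adjusted p = 0.0103). These 3 genes were DE in all 13 fits that left out 1 rat. The median of the list was -0.052. Of 12 genes from growth hormone to *Igf1*, such as its receptor gene *Ghr*, limma called 0 DE, and 0 of them had an unadjusted p under 0.05.

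**Figure D4:**
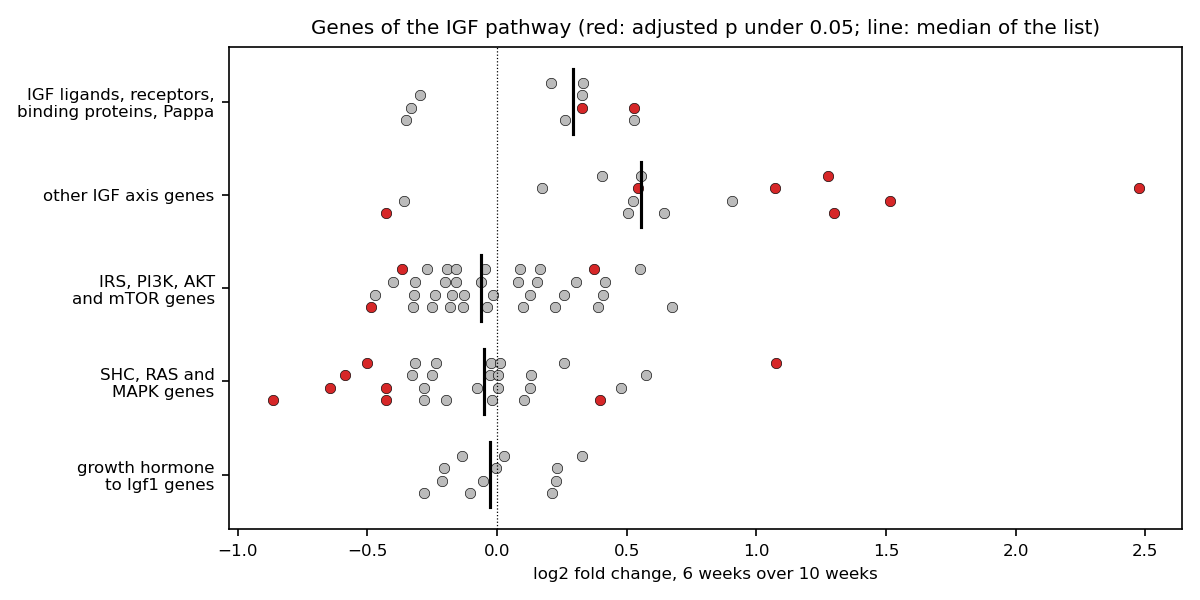
Log2 fold change of 6 over 10 weeks (x axis) of the IGF genes and of 4 lists of other pathway genes (y axis), with 1 point per gene, red where the adjusted p was under 0.05, and a line at the median of each list. The medians are 0.29 for the IGF genes, 0.56 for the other IGF axis genes and between -0.063 and -0.029 for the 3 lists downstream and upstream.

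Over the 13 rats, the genes most like *Igf2r* in log2(normalized count + 1), among 8848 genes with a mean of at least 100, were *Lgmn* (Pearson r 0.962, Spearman rho 0.945), *Col4a5* (r 0.955, rho 0.967) and *Lamp1* (r 0.95, rho 0.901). *Lgmn* encodes the protease legumain, *Col4a5* a basement membrane collagen chain and *Lamp1* a lysosomal membrane protein. With the mean of each age removed these r were 0.836, 0.806 and 0.762. The genes most like *Igfbp4* were *Smoc2* (r 0.975, rho 0.929), *Emilin2* (r 0.974, rho 0.959) and *Timp2* (r 0.959, rho 0.934), which encode secreted proteins of the matrix and a protease inhibitor. With the age means removed their r were 0.947, 0.946 and 0.923. These are descriptions of the highest of many values, and an r over all 13 rats includes the difference between the ages.

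Markers of other cells were counted in the same way, against the 16.1% of all genes that were DE (8.71% with higher values within WOS and 7.39% with higher values outside WOS). Of 15 fibroblast markers in the table, 11 were DE with higher values within WOS, and their sum over all 15 ran from 160839 to 316549 normalized counts within WOS and from 33672 to 85042 outside WOS. None was at 0 in any rat. *Postn* and *Col3a1*, matrix genes, had log2 fold changes of 2.15 and 2.14, and *Pdgfra*, a receptor gene of fibroblasts, had 0.13 (adjusted p = 0.78) and *Dcn*, a proteoglycan gene, 0.57 (adjusted p = 0.197). Of 7 pericyte markers 4 were DE with higher values within WOS (sum 5977 to 8809 against 3467 to 5261), as were 18 of 19 markers of dividing cells (sum 4198 to 8512 against 575 to 2318, with *Plk1*, *Tpx2*, *Birc5* and *Rrm2* at 0 in some rats) and 6 of 8 mast cell markers. *Kit*, another of the 8, was DE with higher values outside WOS. The mast cell markers *Ms4a2*, *Hdc*, *Tpsab1* and *Tpsb2* were at 0 in some rats. Of the 16 luminal markers 3 were DE (18.8%), *Ehf*, *Cdh1* and *Epcam*, all with higher values outside WOS. The log2 fold change was above 0 for 4 of the 16. DE genes numbered 3 of 10 among adipocyte markers and 1 of 10 among endothelial markers, all with higher values within WOS, and 1 of 5 among lymphocyte markers, *Cd79b* with at most 16 normalized counts, again higher within WOS. Of the DE adipocyte markers *Adipoq* and *Plin1*, with at most 56 and 19 normalized counts, were at 0 in some rats. The log2 fold change was below 0 for 3 of the 10 adipocyte markers. The 13 basal markers had 1 DE gene in each direction (*Krt15* higher within WOS and *Cnn1* higher outside WOS). With limma 0 of 11 macrophage markers and 0 of 3 skeletal muscle markers were DE, with 1 at an unadjusted p under 0.05 in each list.

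The 15 fibroblast markers were averaged on the log2(normalized count + 1) scale to a score, which did not overlap between the ages (11.3 to 12.1 within WOS and 9.64 to 10.9 outside WOS). Age and score therefore cannot be told apart here. With the score as a covariate, 4 of 14790 genes were DE and 0 of the 10 IGF genes (limma, 1 of the 10 at an unadjusted p under 0.05). The log2 fold change then was -0.30 for *Igfbp4*, -0.13 for *Igfbp7*, 0.45 for *Igf2r* and -0.34 for *Igfbp5*, none past the threshold. For *Pappa* and *Igf1r* it was -0.35 and -0.37, also not past the threshold. The ratios between partner genes were not fitted with the score. Within each age the score was set against each IGF gene, 20 relations in all. The lowest adjusted p was 0.25 (exact permutation tests, two-sided). For *Igfbp4* Pearson's r was 0.855 within WOS (exact permutation p = 0.0611, Spearman's rho 0.657, exact permutation p = 0.175, n = 6) and 0.938 outside WOS (exact permutation p = 0.019, rho 0.5, exact permutation p = 0.267, n = 7). Without the 2 rats farthest from the median score these r were -0.042 and -0.25. Leaving out those rats also narrows the range of the score, at 6 weeks to between 12.0 and 12.1. These r therefore cannot decide whether the relation rests on those rats. For *Igfbp7* r was 0.683 within WOS (exact permutation p = 0.147, rho 0.657, exact permutation p = 0.175) and 0.588 outside WOS (exact permutation p = 0.154, rho 0.714, exact permutation p = 0.0881), and 0.897 and 0.665 without the 2 rats farthest from the median score. For *Igf2r* r was -0.893 within WOS (exact permutation p = 0.025, rho -0.657, exact permutation p = 0.175, and r -0.488 without the 2 rats farthest from the median score), and -0.022 outside WOS (exact permutation p = 0.96, rho 0.071, exact permutation p = 0.906). For the other 7 IGF genes r ran from -0.285 to 0.797. The highest was that of *Igf1* within WOS (exact permutation p = 0.0486, rho 0.6, exact permutation p = 0.242, and r 0.243 without the 2 rats farthest from the median score). *Igfbp3* outside WOS had r 0.545 (exact permutation p = 0.216) and rho 0.821 (exact permutation p = 0.0341). The part of other cell types in the IGF results was not tested.

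**Figure D5:**
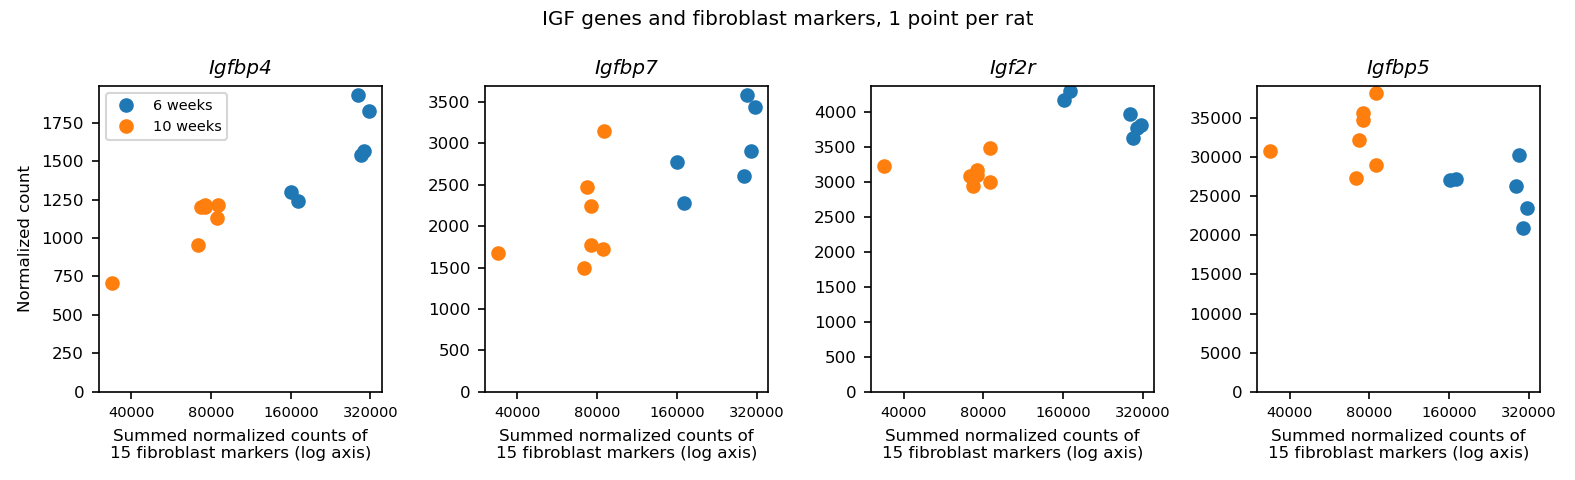
Normalized counts of 4 IGF genes (y axis, linear from 0) against the summed normalized counts of 15 fibroblast markers (x axis, log scale), with 1 point per rat, blue at 6 weeks and orange at 10 weeks. The marker sum parts the ages with no overlap, at 160839 and above within WOS and 85042 and below outside WOS, and the rat lowest in *Igfbp4* is also lowest in the marker sum.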

How the data were processed

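The 13 libraries, 1 per rat, were of mammary epithelial cells. The authors estimated counts with RSEM 1.2.22, scaled each library and deposited them rounded to whole numbers, and the unit of the deposited values is taken as a score (scaled, rounded counts). The submitters' processing notes name rn5, and the annotation is not given in the sources used here. The totals are known, but the depth before scaling only where the low values showed it. Columns of the authors' own comparison (fold changes, p-values and their logs, and a word for location) were not used. Beyond the 13 columns of rats there were 0 others with values per sample.

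Because the values are scaled, no count test was run. They were fitted with limma 3.58.1 (R 4.3.3) as log2(value + 1), over every gene whose mean reached 1 (all 14790), with no covariate and two-sided p-values adjusted after Benjamini-Hochberg. The fit was tested on simulated data. Ratios and correlations within rats were tested by exact permutation in Python 3.11.15 (numpy 2.4.6, scipy 1.17.1). P-values set a difference between the ages, or a relation within an age, against the spread between rats. The alternatives were 3 other scalings, 0.1 as pseudocount, genes with 10 or more in each rat, no minimum, limma-trend, sample quality weights, 2 covariates, the 2 sets of rats, and each rat left out. Named genes were the IGF genes, DE genes of the other IGF axis list, up to 4 DE genes with the smallest adjusted p of each further list, the genes of the pairs, and the 3 genes most like each DE IGF gene. A gene that this rule names is not reported here. Markers named beyond this were picked with their values known. The IGF genes and all lists were chosen with earlier results of these data known. RefSeq promoter windows were found for 8 of the 10 genes by a unique symbol.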

Additional observations from a re-analysis of the deposited data

Results flagged for a closer look

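Of 32 sets of values (10 IGF genes and 6 log2 ratios at each age), 1 held a rat that stood apart from the rest of its age by Dixon's criterion at the 95% level, and chance gives about 1 in 20. In rat 84, at 6 weeks, the log2 ratio of *Igf1* over *Igf2* was -2.05, against -1.04 in the next lowest of the 6 rats. This rat had the lowest *Igf1* (132 normalized counts) and the highest *Igf2* (550) of its age. At 10 weeks rat 81 combined the lowest *Igf1* (103) with the highest *Igf2* (570) in the same way, with a log2 ratio of -2.46.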

How the results depend on the processing

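The call of *Igf2r* was kept under the 3 other scalings, the other pseudocount and minimum, limma-trend, sample quality weights and the residual component, and that of *Igfbp4* under these except the weights. Sample quality weights gave 5 DE IGF genes, 5647 of all genes and 35 of 92 pathway genes (2, 2381 and 18 without them), with log2 fold changes of -0.44 for *Igf1r*, 0.49 for *Igfbp2*, -0.29 for *Igfbp5* and -0.32 for *Pappa*, all then DE, and 0.36 for *Igfbp4*, then not DE. *Igfbp7* (0.53) was DE with 10 or more counts in each rat and with limma-trend, and *Igfbp5* (-0.33) with the residual component. The former minimum left 33 DE markers of 50, with 93 of 117 tested. With the fibroblast score as a covariate, limma called 0 IGF genes, 0 pathway genes (6 at an unadjusted p under 0.05) and 4 of all genes. The log2 fold change then was -0.41 for *Igf1*, -0.035 for *Igf2*, 0.45 for *Igf2r*, -0.097 for *Igfbp2*, -0.31 for *Igfbp3*, -0.30 for *Igfbp4*, -0.13 for *Igfbp7*, -0.44 for *Igfbp6*, -0.59 for *Htra3*, 0.16 for *Stc2* and -0.099 for *Shc2*. All of these but *Igf2r* changed sign, and the cause was not tested.

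Within the set of 8 rats limma called 0 IGF genes (1 at an unadjusted p under 0.05), with 0.33 for *Igf2r* and 0.49 for *Igfbp4*, and the differences of the log2 ratios were -0.79 for *Igf1r* over *Igf2r*, -0.75 for *Pappa* over *Igfbp4*, and with changed sign -0.25 for *Igf1* over *Igf2*, -0.034 for *Igf1r* over *Insr* and -0.068 for *Pappa* over *Igfbp5*. Within the set of 5 rats it called 0 IGF genes (3 at an unadjusted p under 0.05) and 0 of all genes (1976 at an unadjusted p under 0.05), with -0.090 for *Igf2*, 0.31 for *Igf2r* and 0.63 for *Igfbp4*, and differences of -0.40 for *Igf1r* over *Igf2r*, -0.98 for *Pappa* over *Igfbp4* and -1.14 for *Pappa* over *Stc2*. These fits hold fewer rats. The set of 8 nevertheless gave more DE genes in all, 3469 of 14774 against 2381 of 14790 with all rats. Why the IGF calls were lost in that set was not tested.

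With each rat left out, 1 to 3 IGF genes, 8 to 20 pathway genes and 1411 to 2680 of all genes were DE. The lowest counts of pathway genes and of all genes were those without rat 70, and without rats 84 and 87 the count of all genes was 1488 and 1558. The log2 fold changes ran from 0.30 to 0.35 for *Igf2r*, 0.43 to 0.59 for *Igfbp4*, -0.38 to -0.27 for *Igfbp5* and 0.45 to 0.63 for *Igfbp7*. The differences ran from -0.17 to 0.26 for *Igf1* over *Igf2*, -0.026 to 0.10 for *Pappa* over *Igfbp5* and -0.24 to 0.46 for *Pappa* over *Stc2*. No paired analysis was possible because the ages share no rat numbers.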

Other observations

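The genes most like the other IGF genes over the 13 rats were found by the same measure but chosen for mention after their values were seen, and they are given with no test. *Igf1* was most like *Mrc1*, the mannose receptor gene of macrophages (Pearson r 0.882, Spearman rho 0.885), *Irf4*, a transcription factor gene of immune cells (r 0.867, rho 0.857), and *Olfml1* (r 0.86, rho 0.659). None of these was DE. *Igf2* was most like *Prr27* (r 0.811, rho 0.659), *Muc1*, a mucin gene of luminal cells (r 0.788, rho 0.599), and *Csn2*, the beta-casein gene (r 0.748, rho 0.594), and with the mean of each age removed the r of *Csn2* was 0.749. *Igfbp2* was most like *Pebp1* (r 0.933, rho 0.966), *Eif6* (r 0.933, rho 0.918) and the ribosomal protein gene *Rps21* (r 0.927, rho 0.89). *Igf1r* was most like *Dst* (r 0.936, rho 0.852), which encodes a large cytoskeletal linker. Each r was picked from 8848 genes and, unless stated, includes the difference between the ages.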
